A study of Mus musculus with 22 samples.

Results

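The 9 genes described here belong to the WNK kinase and ion cotransport pathway and were followed through 22 RNA-sequencing libraries of sorted mouse brain endothelial cells. Their 9 symbols (Wnk1, Wnk4, Klhl3, Cul3, Stk39, Oxsr1, Slc12a2, Slc12a7 and Nedd4l) matched 10 of the 37991 entries of the deposited expression table, since Wnk1 has a second, barely detected entry. The set was selected on the CPM values of Wnk4 and Klhl3, which differed between activation and silencing of neurons. Values of the 9 genes in those experiments are therefore a description, and where counts of calls there are given beside the share over all genes, nothing is read from them. The whisker experiment took no part in the choice and is tested.

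WNK kinases sense chloride and cell volume and phosphorylate the kinases SPAK (gene Stk39) and OSR1 (gene Oxsr1). These in turn phosphorylate cation-chloride cotransporters, which turns on sodium-driven chloride uptake by NKCC1 (gene Slc12a2) and turns off chloride export by potassium-chloride cotransporters such as KCC4 (gene Slc12a7). KLHL3 is the adaptor by which the cullin CUL3 marks WNK kinases for degradation, and NEDD4L is a ubiquitin ligase that removes sodium channels and other transporters from the membrane. In the blood-brain barrier, ion transport across the endothelium drives the secretion of fluid into the brain, and NKCC1 is one of its transporters.

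All libraries came from C57BL/6 mice and from cells enriched for the endothelial surface protein CD31 by fluorescence-activated sorting. Activation libraries (4) came from cortex and hippocampus of CamKIIa-tTA; TRE-hM3Dq mice, in which a receptor that excites neurons on binding the drug CNO is driven through the CamKIIa promoter in glutamatergic neurons, and the activation controls (4) from their littermates. Silencing libraries (4) came from the same tissue of CamKIIa-tTA; TRE-hM4Di mice, whose receptor inhibits neurons, and the silencing controls (4) from their littermates. All 4 of these groups received CNO 3 hours before collection, and the series text says that the littermates expressed no receptor, although each control group carries the genotype label of its treated group. Whisker-plus libraries (3) came from barrel cortex of wild-type mice that had whiskers and explored an enriched environment in darkness, and whisker-minus libraries (3) from wild-type mice without whiskers in an empty cage. Each whisker library pooled 5 pairs of barrel cortices, and whiskers and cage differed together, so their effects cannot be told apart. The labels give no age, and the series text calls the samples biological samples.

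Depth was 18387666 to 25163689 reads per library for activation and its controls. It was 25897142 to 32957916 reads for silencing and its controls, and 44187482 to 57673270 reads for whisker libraries. All 8 endothelial markers listed (among them Pecam1, Cdh5 and Cldn5) exceeded 1 CPM (reads per 1000000 counted reads) in every group, and their summed level was 15800 to 22300 CPM over the 22 libraries. Summed markers of other cell types were lower, at 63.4 to 152 CPM for 8 neuronal genes and at 548 to 2710 CPM for 8 pericyte genes. By median, silencing libraries held 17300 CPM of endothelial and 1560 CPM of pericyte markers, against 19900 and 990 CPM in their controls. Both ranges overlapped. Choroid plexus and ependymal markers summed to 130 CPM in silencing 2, beside 4.68 to 28.5 CPM in silencing 1, 3 and 4 and 4.09 to 44.5 CPM in silencing controls. The part of these in the silencing values was not tested. The pericyte sum was highest in library 1 of each group, at 2100 CPM in activation, 2190 in activation control, 2400 in silencing, 2710 in silencing control, 1030 in whisker-plus and 1070 CPM in whisker-minus. Silencing control 2 stood apart within its group. It held 469 CPM of Fkbp5, a gene induced by glucocorticoids, beside 20.9, 10.3 and 21.6 CPM in silencing controls 1, 3 and 4 and 248 to 342 CPM in the silencing libraries. Silencing control 2 also had the highest astrocyte sum (585 CPM, the other 3 at 324 to 353), the highest smooth muscle sum (536 CPM, the others at 201 to 410) and the lowest endothelial sum (16800 CPM) of its group. The part of these in its values was not tested.

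Wnk4 and Klhl3 are the 2 genes on which the choice rested, and the sequence upstream of their starts is shown for that reason. The 250 bases before the RefSeq gene start are written 5′ to 3′ on the gene's strand, with the GC box GGGCGG, a binding motif of Sp1, in capitals. The build is GRCm38.p6 (RefSeq), at chr11:101260317-101260566 on the plus strand for Wnk4 and chr13:58113648-58113897 on the minus strand for Klhl3.
Wnk4: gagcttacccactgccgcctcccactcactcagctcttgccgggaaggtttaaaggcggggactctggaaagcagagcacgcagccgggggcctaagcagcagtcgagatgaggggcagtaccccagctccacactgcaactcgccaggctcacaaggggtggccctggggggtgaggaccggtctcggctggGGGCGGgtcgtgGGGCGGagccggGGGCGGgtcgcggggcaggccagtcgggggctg
Klhl3: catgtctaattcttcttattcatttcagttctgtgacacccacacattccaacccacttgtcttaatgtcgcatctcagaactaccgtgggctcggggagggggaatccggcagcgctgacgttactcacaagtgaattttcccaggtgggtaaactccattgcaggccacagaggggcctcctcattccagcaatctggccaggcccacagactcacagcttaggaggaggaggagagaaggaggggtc
The Wnk4 stretch held 3 GC boxes, at -57 to -52, -45 to -40 and -33 to -28 from the start, and was 70.0% G or C. The Klhl3 stretch held none and was 53.2% G or C. Of 32851 promoters of the same length in the table, 32.7% had a GC box on either strand. On both strands, 9 other motifs were searched and matched neither stretch: the E-box CACGTG (in 6.02% of promoters), the D-box TTATGTAA (0.819%), the full palindromic glucocorticoid receptor site (0.00913%) and its core AGAACA (16.1%), the CREB site TGACGTCA (1.55%), the AP-1 site TGAGTCA (4.46%), the ETS site CCGGAA (12%), the GATA site AGATAA (9.99%) and CCAAT (33.8%). The full receptor site contains its core. The first bases of the Klhl3 entry were not found in a GENCODE transcript of the gene, so the start used by endothelial cells may lie elsewhere.

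Levels differed widely between the 9 genes. Exonic length here joins the exons of every annotated transcript of a gene (GENCODE M21), at 22825 bases for Wnk1 and 4148 for Wnk4. Where cells use shorter transcripts, the level per kilobase is understated, so the order of genes depends on this length. Per kilobase of it, the median over the 11 control libraries of the 3 experiments was 28.5 CPM per kb for Cul3, 20.6 for Wnk1 and 14.1 for Oxsr1. It was 4.9 CPM per kb for Slc12a7, 4.27 for Slc12a2, 3.05 for Stk39 and 3.01 for Nedd4l. Wnk4, at 1.16 CPM per kb, and Klhl3, at 0.989 CPM per kb, were the lowest. These 2 low genes were also the most variable: the highest of the 22 libraries exceeded the lowest 13.2-fold for Wnk4 and 11.6-fold for Klhl3, against 1.35-fold (Nedd4l) to 2.55-fold (Slc12a2) for the other 7. For both genes the lowest library was an activation library and the highest a silencing library. They were chosen on those groups, so their wider range restates the choice and is a description. Wnk4 rested on 35 to 646 reads per library and Klhl3 on 38 to 610, whereas Wnk1 had at least 7129.

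**Figure D1:**
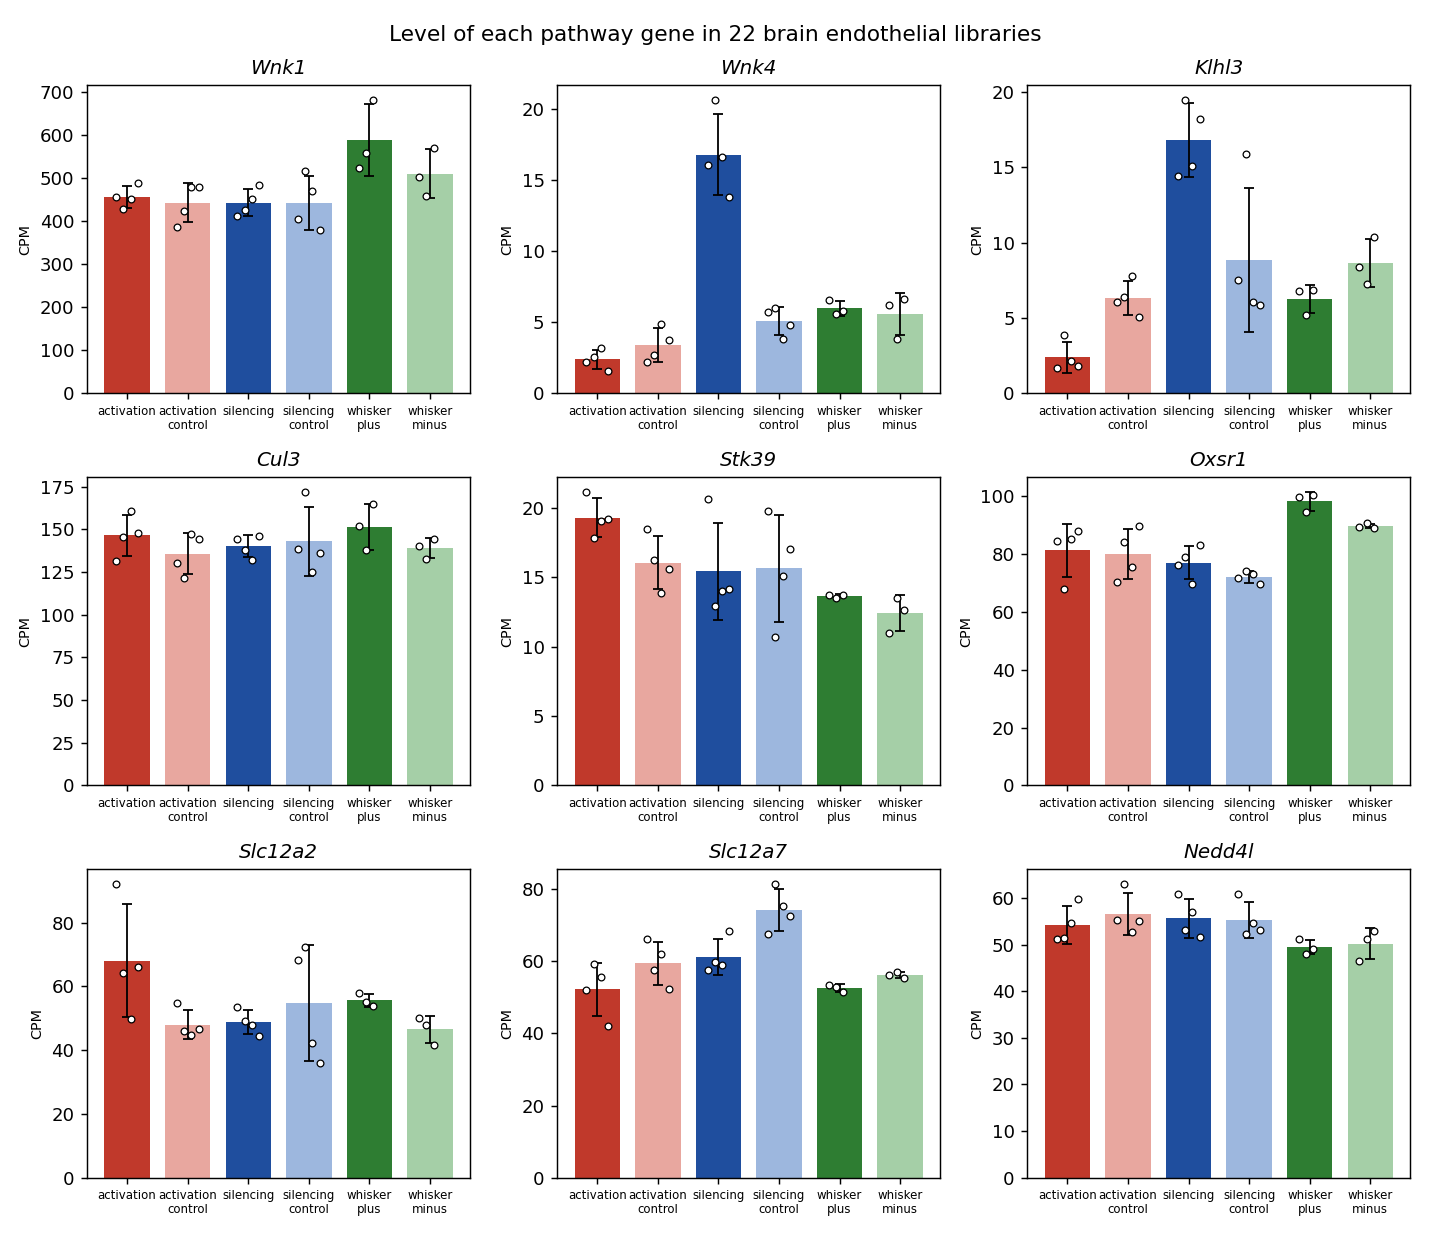
Level of each gene in CPM (y axis, from 0) in the 6 groups; points are libraries, bars are group means and error bars are SD (n = 4 per group in the activation and silencing experiments, n = 3 in the whisker experiment). Wnk4 stood highest in the 4 silencing libraries, at 13.8 to 20.6 CPM, and Klhl3 lowest in the 4 activation libraries, at 1.68 to 3.86 CPM.

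Of the WNK kinases, Wnk4 (ENSMUSG00000035112) was higher in silenced mice than in their controls, and Wnk1 was nearly level. The silencing libraries held 16, 20.6, 16.6 and 13.8 CPM of Wnk4, against 5.71, 6.00, 3.84 and 4.82 CPM in their controls. All 4 silencing libraries lay above all 4 controls, with a log2 fold change of 1.55 ± 0.15 (SE, n = 4 each), a 2.92-fold difference on the log2(CPM + 1) scale. The activation libraries held 2.22, 2.56, 3.22 and 1.56 CPM, against 2.18, 2.70, 4.88 and 3.78 CPM in their controls. These groups overlapped (log2 -0.35 ± 0.23), and the activation library was the lower of the pair in 3 of 4 same-numbered pairs. Whisker-plus libraries held 6.58, 5.57 and 5.80 CPM, against 6.22, 3.85 and 6.59 CPM in whisker-minus libraries, a log2 difference of 0.12 ± 0.21 that did not pass (limma adjusted p = 0.881). In sorted cells measured in bulk, here and for every gene below, fewer cells of a type and less RNA per cell cannot be told apart.

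Ordered by mean, Wnk4 stood at 16.8 ± 2.85 CPM in silencing (SD, n = 4), 5.98 ± 0.529 in whisker-plus (n = 3), 5.55 ± 1.49 in whisker-minus (n = 3), 5.09 ± 0.973 in silencing controls (n = 4), 3.38 ± 1.20 in activation controls (n = 4) and 2.39 ± 0.689 CPM in activation (n = 4). Only the step below silencing separated neighbours without overlap of their libraries, and each of the other neighbours overlapped. The experiments differ in genotype, tissue or depth, so for steps between groups of different experiments these and the treatment cannot be told apart. Wnk4 shares 306 exonic bases with Gm11615, a gene on the opposite strand that had at most 0.0958 CPM in any library. How strand was handled in counting is not given in the sources, so reads of those bases cannot be assigned.

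Wnk1 (ENSMUSG00000045962), the broadly expressed WNK kinase, had 457, 429, 452 and 490 CPM in activation libraries, against 388, 424, 481 and 479 CPM in their controls (log2 0.05 ± 0.10). Silencing libraries had 412, 426, 452 and 485 CPM, against 404, 518, 470 and 380 CPM (log2 0.01 ± 0.11). Both pairs of groups overlapped. Whisker-plus libraries had 524, 560 and 683 CPM, against 503, 460 and 572 CPM in whisker-minus libraries. The whisker-plus library was the higher in all 3 same-numbered pairs, yet the groups overlapped and the difference of 0.20 ± 0.13 did not pass (limma adjusted p = 0.562, and 0.0703 with the replicate number as a block). The second Wnk1 entry (ENSMUSG00000089896) stayed at 0.189 to 1.44 CPM.

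Per kilobase, Wnk4 made up 17.2 ± 3.12% of the summed Wnk1 and Wnk4 level in silencing libraries (SD, n = 4), against 6.0 ± 1.24% in silencing controls. The share was 2.82 ± 0.874% in activation libraries, against 3.96 ± 1.01% in activation controls, and 5.37 ± 1.01% in whisker-plus libraries, against 5.58 ± 1.05% in whisker-minus libraries. Wnk1 thus remained the main WNK transcript of the pair in every library, with Wnk4 at no more than 21.1%. The size of the share rests on the joined exonic lengths, 22825 bases for Wnk1 and 4148 for Wnk4. A shorter Wnk1 length would lower it. This share and the other ratios between genes below were picked after the values had been seen and are descriptions.

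Klhl3 (ENSMUSG00000014164), the adaptor that brings WNK kinases to CUL3, was lower in activated mice and higher in silenced mice, each beside its own controls. The activation libraries held 1.68, 3.86, 2.13 and 1.83 CPM, against 6.04, 6.40, 7.79 and 5.09 CPM in their controls. All 4 activation libraries lay below all 4 controls (log2 -1.15 ± 0.21, 0.451-fold on the log2(CPM + 1) scale). The silencing libraries held 14.4, 19.5, 15.1 and 18.2 CPM, against 7.53, 15.9, 6.04 and 5.83 CPM in their controls (log2 0.95 ± 0.26). These groups overlapped through silencing control 2, the library with high Fkbp5, although the silencing library was the higher in all 4 same-numbered pairs. Without that control the log2 fold change was 1.25 ± 0.14 for Klhl3 and 1.62 ± 0.16 for Wnk4.

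In barrel cortex, Klhl3 stood at 6.78, 5.19 and 6.83 CPM in whisker-plus libraries, against 8.39, 7.24 and 10.4 CPM in whisker-minus libraries. All 3 whisker-plus libraries were below all 3 whisker-minus libraries, as for activation, but the difference of -0.41 ± 0.19 did not pass (limma adjusted p = 0.411, and 0.137 with the replicate block). With 1 library left out at a time the difference ran between -0.52 and -0.28. Ordered by mean over the 6 groups, Klhl3 was at 16.8 ± 2.46 CPM in silencing, 8.82 ± 4.77 in silencing controls, 8.67 ± 1.59 in whisker-minus, 6.33 ± 1.12 in activation controls, 6.26 ± 0.931 in whisker-plus and 2.38 ± 1.01 CPM in activation. Only the last step, between whisker-plus and activation, separated neighbours without overlap. That step lies between experiments that differ in genotype, tissue and depth, so these and the treatment cannot be told apart.

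**Figure D2:**
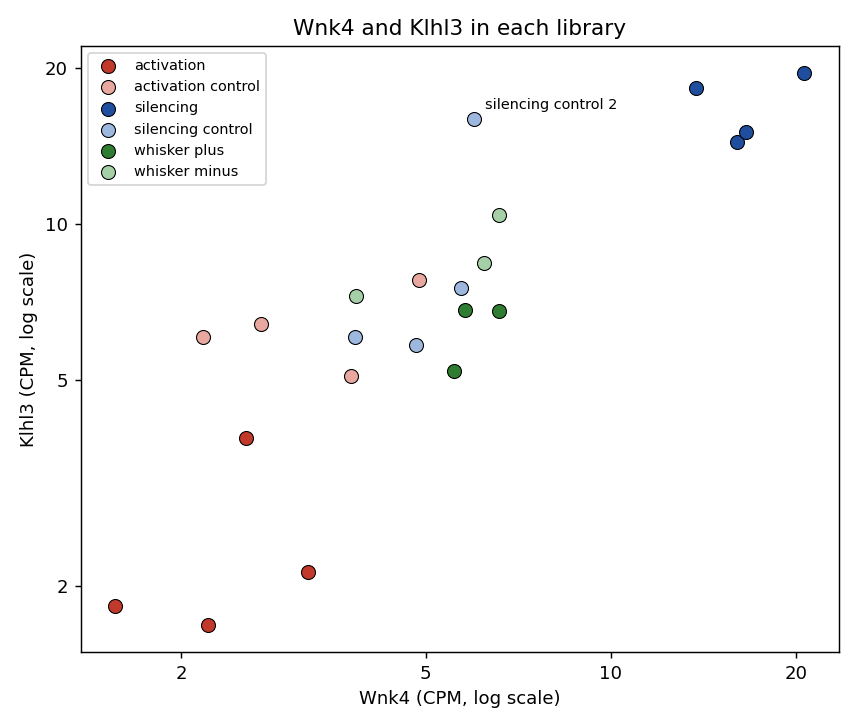
Wnk4 (x axis) against Klhl3 (y axis) in CPM, both on log scales; each point is 1 of the 22 libraries, coloured by group. The 4 activation libraries lie at the lower left, the 4 silencing libraries at the upper right, and silencing control 2, at 6.00 CPM of Wnk4 and 15.9 CPM of Klhl3, stands above the other controls.

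Cul3 (ENSMUSG00000004364), the scaffold of the ligase, showed smaller differences than Klhl3. It had 131, 146, 161 and 148 CPM in activation libraries, against 130, 122, 147 and 144 CPM in their controls (log2 0.11 ± 0.10). In silencing libraries it had 145, 138, 132 and 146 CPM, against 139, 172, 125 and 136 CPM (log2 -0.02 ± 0.10, above 0 with RLE or TMM scaling). Both pairs of groups overlapped. Whisker-plus libraries had 152, 138 and 165 CPM, against 140, 133 and 145 CPM, and the difference of 0.12 ± 0.09 did not pass (limma adjusted p = 0.631). The CPM ratio of Klhl3 to Cul3 was 0.0124 to 0.0265 in activation libraries, against 0.0353 to 0.0529 in activation controls, with no overlap. It was 0.0994 to 0.141 in silencing libraries, against 0.0427 to 0.0923, and 0.0376 to 0.0446 in whisker-plus libraries, against 0.0545 to 0.0718 in whisker-minus libraries, again with no overlap.

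The kinases downstream of WNK differed little between the groups. Stk39 (ENSMUSG00000027030), which encodes SPAK, had 21.2, 17.8, 19 and 19.2 CPM in activation libraries, against 18.5, 16.2, 13.8 and 15.6 CPM in their controls. It was the higher in all 4 pairs, although activation 2 lay below activation control 1 (log2 0.26 ± 0.12). Silencing libraries had 20.6, 12.9, 14 and 14.1 CPM, against 19.7, 10.7, 15.1 and 17 CPM (log2 -0.01 ± 0.19, above 0 with RLE or TMM scaling), and whisker-plus libraries 13.7, 13.5 and 13.7 CPM, against 11, 13.5 and 12.7 CPM (0.13 ± 0.13, limma adjusted p = 0.737). Library 1 was the highest of its group for Stk39 in activation, activation control, silencing and silencing control, which are also the libraries with the highest pericyte sums. In both whisker groups library 1 also had the highest pericyte sum, but not the highest Stk39. Whisker-minus 1 had the lowest Stk39 of its group, at 11 CPM. The part of pericyte RNA in these values was not tested.

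Oxsr1 (ENSMUSG00000036737), which encodes OSR1, was the more abundant of the 2 kinases per kilobase and differed as little. Activation libraries had 84.4, 67.7, 85.2 and 87.8 CPM, against 70.4, 84.0, 75.5 and 89.7 CPM (log2 0.02 ± 0.11). Silencing libraries had 76.0, 79, 69.6 and 83.1 CPM, against 71.5, 74.0, 73.0 and 69.5 CPM (log2 0.09 ± 0.07, and 0.17 with RLE scaling). Both pairs overlapped. In barrel cortex the whisker-plus libraries, at 99.7, 94.5 and 100 CPM, all lay above the whisker-minus libraries, at 89.2, 90.6 and 89.1 CPM, but this 1.09-fold difference did not pass (0.13 ± 0.07, limma adjusted p = 0.497).

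Slc12a2 (ENSMUSG00000024597), which encodes the sodium-potassium-chloride cotransporter NKCC1, stood higher with activation and with whisker exploration. Activation libraries had 92.1, 64.3, 49.8 and 66.1 CPM, against 54.9, 45.9, 44.8 and 46.6 CPM in their controls. The activation library was the higher in all 4 pairs, and only activation 3 fell within the range of the controls (log2 0.47 ± 0.16). Without each library in turn the value ran between 0.31 and 0.60. In silencing libraries Slc12a2 had 53.5, 49.1, 48 and 44.4 CPM, within the wide range of their controls at 68.3, 72.5, 42.2 and 36.1 CPM (log2 -0.11 ± 0.21, and 0.05 without silencing control 2). Library 1 was the highest of its group for Slc12a2 in every group except silencing control. It also had the highest pericyte sum of each group, at 2100 CPM in activation and 2190 CPM in activation control. The part of pericyte RNA in the Slc12a2 values was not tested.

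All 3 whisker-plus libraries, at 58.0, 55.1 and 54.0 CPM of Slc12a2, lay above the whisker-minus libraries, at 49.95, 47.8 and 41.7 CPM. The log2 difference of 0.26 ± 0.10 did not pass (limma adjusted p = 0.335, and 0.0562 with the replicate block). With the block and TMM scaling together it passed, at 0.32 ± 0.07 (limma adjusted p = 0.0401), a setting that called 843 of the 12776 tested genes. Astrocyte markers, 8 genes summed, were at 293, 317 and 320 CPM in whisker-plus libraries, against 292, 1140 and 1010 CPM in whisker-minus libraries, with none of the 8 at 0, and smooth muscle markers, 6 genes, at 161, 439 and 343 CPM, against 112, 1410 and 514 CPM. Their part in the whisker differences was not tested. Slc12a2 differed by 0.31 without whisker-minus 1, by 0.28 without whisker-minus 2 and by 0.18 without whisker-minus 3.

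Slc12a7 (ENSMUSG00000017756), which encodes the potassium-chloride cotransporter KCC4, stood lower in silenced mice. Silencing libraries had 57.6, 59.7, 58.9 and 68.5 CPM, against 67.6, 81.5, 75.2 and 72.6 CPM in their controls. The silencing library was the lower in all 4 pairs, with an overlap of 1 library on each side (log2 -0.28 ± 0.09, against a median of -0.07 over all tested genes). Activation libraries had 52, 59.2, 55.7 and 42.0 CPM, against 66.1, 57.6, 62.1 and 52.3 CPM (log2 -0.19 ± 0.12), and these groups overlapped. Whisker-plus libraries, at 53.5, 52.8 and 51.5 CPM, all lay below whisker-minus libraries, at 56.3, 57.1 and 55.3 CPM. That difference of -0.09 ± 0.08 was close to the median of -0.07 over all tested genes and did not pass (limma adjusted p = 0.666, and -0.02 with RLE scaling).

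The CPM ratio of Slc12a2 to Slc12a7, the uptake over the export transporter, was 0.895 to 1.77 in activation libraries, against 0.721 to 0.891 in activation controls. The ratio was 1.04 to 1.08 in whisker-plus libraries, against 0.755 to 0.887 in whisker-minus libraries. Neither pair of groups overlapped, by a narrow margin for activation. It was 0.648 to 0.928 in silencing libraries, inside the range of 0.497 to 1.01 of silencing controls.

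**Figure D3:**
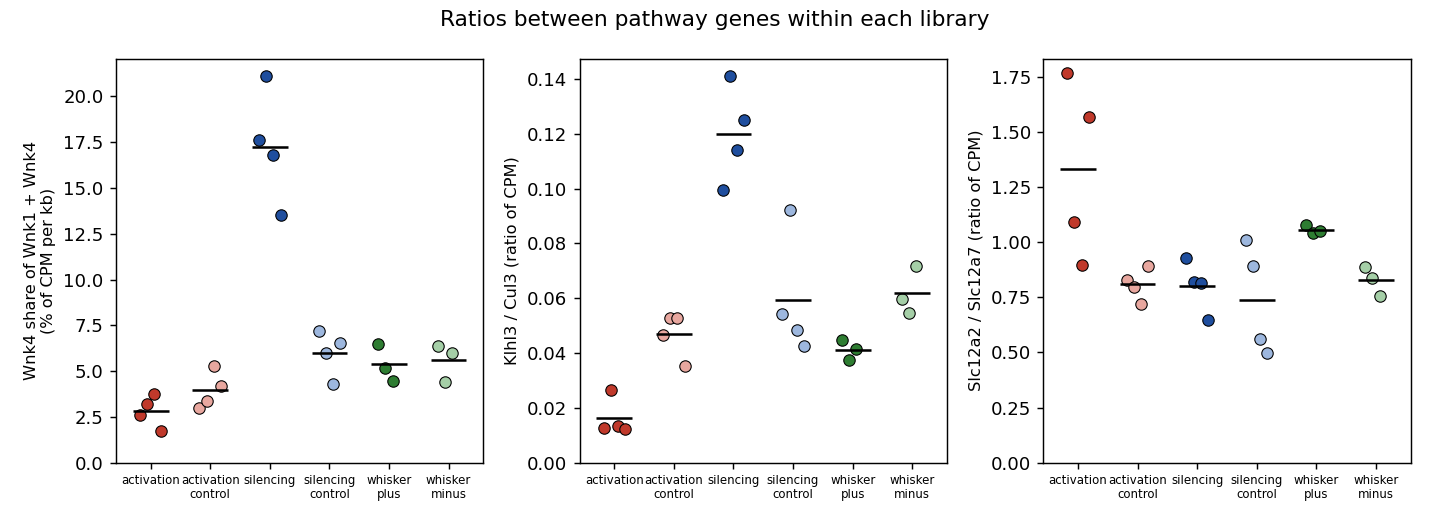
Ratios within each library by group (x axis): Wnk4 as a percent of Wnk1 plus Wnk4 per kilobase, Klhl3 over Cul3 and Slc12a2 over Slc12a7, both as ratios of CPM. Points are libraries and lines are group means; the Wnk4 share is 13.5 to 21.1% in silencing libraries, against 4.3 to 7.2% in silencing controls.

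Nedd4l (ENSMUSG00000024589) was the steadiest of the 9 genes, with 46.5 to 63.0 CPM over all 22 libraries. Activation libraries had 51.2 to 59.7 CPM, against 52.7 to 63.0 CPM in their controls (log2 -0.06 ± 0.10). Silencing libraries had 51.6 to 60.9 CPM, against 52.2 to 60.8 CPM (0.01 ± 0.08). Whisker-plus libraries had 48.1 to 51.1 CPM, against 46.5 to 52.9 CPM (-0.02 ± 0.09, above 0 with RLE or TMM scaling, limma adjusted p = 0.954). It shares 277 exonic bases with A330084C13Rik, a gene on the opposite strand that was not analysed here.

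**Figure D4:**
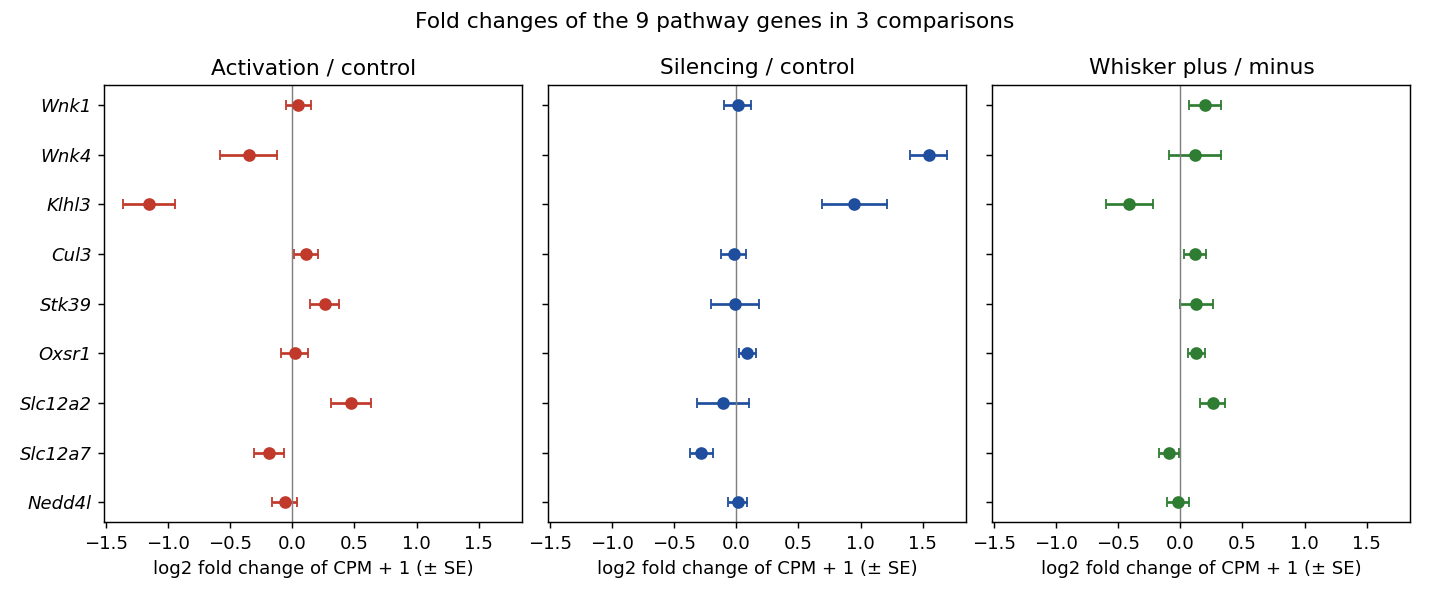
Log2 fold change of CPM + 1 (x axis) with its SE for the 9 genes (rows) in activation over control, silencing over control and whisker-plus over whisker-minus. Klhl3 lies at -1.15, 0.95 and -0.41 in the 3 panels and Wnk4 at -0.35, 1.55 and 0.12, while the other 7 genes lie between -0.28 and 0.47.

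Taking the 9 genes as a set, the median log2 fold change was 0.02 for activation, 0.01 for silencing and 0.12 for whisker-plus over whisker-minus, beside -0.01, -0.07 and -0.07 over all tested genes. In activation, 5 of 9 were above 0, and 1 of 9, Klhl3, had groups that did not overlap, beside 7.16% of all tested genes. By limma 0 of 9 passed for activation (0.14% of tested genes), and 1 of 9, Klhl3, with the replicate block (1.82%); edgeR called 0, DESeq2 1, and 2 had an unadjusted p under 0.05. In silencing, 5 of 9 were above 0, 1 of 9 (Wnk4) had groups that did not overlap (9.55% of tested genes), and 1 of 9, Wnk4, passed without the block (0.177%) and with it (1.04%). The silencing count was 0 without silencing 1, 2 or 3 or without silencing controls 1 or 4, and 2 (Wnk4 and Klhl3) without silencing control 2, when 1503 of all genes passed. These counts come from the contrasts that chose the genes, so nothing is read from them.

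For the whisker experiment, 6 of 9 genes were above 0 and 4 of 9 had groups that did not overlap (Oxsr1 and Slc12a2 higher, Klhl3 and Slc12a7 lower), beside 19.1% of tested genes. By limma 0 of 9 passed, as did 0% of the 12776 genes tested, and with the replicate block 0 of 9 passed beside 8.59% of tested genes. Slc12a2 alone of the 9 had an unadjusted p under 0.05, and edgeR and DESeq2 on the recovered reads called 0 of 9 each. With 301 genes passing without whisker-minus 1, still 0 of the 9 did.

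Set side by side, the fold changes of Wnk4 and Klhl3 differed between the experiments. The activation effect minus the silencing effect was -1.90 ± 0.28 for Wnk4 and -2.10 ± 0.35 for Klhl3, and 0.57 ± 0.28 for Slc12a2, with the other 6 genes between -0.07 and 0.27. Over all tested genes 2.31% passed this contrast (6.35% with the replicate block). Wnk4 and Klhl3 were chosen for it, so their calls in it are not read. The whisker effect minus the activation effect was 0.74 ± 0.30 for Klhl3 and 0.47 ± 0.33 for Wnk4, and 0 of the 9 genes passed, with 0% of all tested genes called (0 of 9 with the block, beside 0.00736%). Of the 9, only Klhl3 had an unadjusted p under 0.05, and edgeR and DESeq2 called 0. The whisker effect minus the silencing effect was -1.43 ± 0.26 for Wnk4 and -1.36 ± 0.36 for Klhl3. In that contrast 1 of 9 passed (Wnk4, beside 0.221% of tested genes), and 2 with the block (Wnk4 and Klhl3, beside 2.22%). The count was 0 by edgeR, with no filter, with all 22 libraries in the fit and in 10 of the 14 fits without 1 library (silencing 1, 2 or 3, silencing control 1, 3 or 4, whisker-plus 1, 2 or 3, or whisker-minus 3). It was 2 by DESeq2 and without silencing control 2. The silencing values in this contrast took part in choosing both genes. For the other 7 genes the difference from silencing ran between -0.03 and 0.37.

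The authors' deposited table marks Wnk4 (log2 1.51, FDR 2.44e-19) and Klhl3 (log2 0.65, FDR 0.0354) as up in silencing. The authors' values for activation and silencing rest on the same libraries on which both genes were chosen, so they are descriptions. The authors' deposited table also marks Slc12a2 (log2 0.42, FDR 0.121) and Stk39 (log2 0.24, FDR 0.343) as up in activation, and Wnk1 (log2 0.26, FDR 0.335) and Slc12a2 (log2 0.30, FDR 0.207) as up with whiskers, calls that rest on an unadjusted p. Klhl3 carries no mark for activation in the authors' deposited table, where it has a log2 fold change of -0.88 and an FDR of 0.000544; a header there asks for a mean over 10 CPM.

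Outside the 9 genes, 67 genes were listed in 7 groups. They were other WNK kinases and scaffolds, cullin ligase partners, kinases and phosphatases, cation-chloride cotransporters, sodium pump and exchanger genes, bicarbonate transporters and channels. Of the 67 genes, 60 were tested for activation, 61 for silencing and 58 in the whisker experiment. Wnk3 and Piezo1 were not analysed here. Without the replicate block 0 passed in each of the 3 comparisons by limma and by edgeR, while DESeq2 called 5, 1 and 2 and 11, 10 and 10 had an unadjusted p under 0.05. With the block 3 rose with activation (beside 1.82% of all tested genes passing), 0 passed for silencing (1.04%), and 3 rose and 6 fell with whiskers (8.59%). Silencing control 2 and whisker-minus 1 each decide such counts: without silencing control 2, 4 rose and 6 fell with silencing, and without whisker-minus 1, 5 fell and 0 rose with whiskers, both with no block. The median log2 fold change of the list was 0.07, -0.07 and 0.

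The 3 that rose with activation under the block act on sodium, bicarbonate and calcium. Trpv4, a calcium channel opened by cell swelling and stretch, was at 138, 122, 132 and 149 CPM in activation libraries, against 96.4, 82.7, 80.6 and 105 CPM in their controls, with no overlap (0.57 ± 0.07 with the block, limma adjusted p = 0.0172, and 0.0817 without it). Fxyd5, a regulatory subunit of the sodium pump, averaged 546 ± 48.3 CPM, against 402 ± 44.7 (SD, n = 4 each; 0.44 ± 0.08 with the block, limma adjusted p = 0.0338, and 0.166 without it). Slc4a7, a sodium-bicarbonate cotransporter, averaged 29.9 ± 0.849 CPM, against 19.5 ± 3.28 (0.60 ± 0.12, limma adjusted p = 0.0444, and 0.127 without it). Fxyd5 also differed between activation and silencing, by 0.92 ± 0.18 (limma adjusted p = 0.0178), with 268 ± 15.1 CPM in silencing libraries, against 379 ± 73.3 CPM in silencing controls. Slc4a7 (0.81 ± 0.18) and the phosphatase subunits Ppp1cb (0.47 ± 0.10) and Ppp3cb (0.49 ± 0.10) passed that contrast with the block (limma adjusted p = 0.0264, 0.0201 and 0.0203) and not without it (0.0501, 0.0818 and 0.0514). Of the 61 listed genes tested in it, 1 passed without the block (beside 2.31% of all tested genes) and 7 with it (6.35%).

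Trpv4 was likewise higher with whiskers, at 102, 125 and 125 CPM in whisker-plus libraries, against 68.1, 83.1 and 80.0 CPM in whisker-minus libraries, with no overlap. Its log2 difference of 0.60 ± 0.06 passed with the block (limma adjusted p = 0.00195) and not without it (0.19). Lrrc8a, the essential subunit of the volume-regulated anion channel, rose by 0.34 ± 0.06 (limma adjusted p = 0.0114 with the block, 0.266 without) and Fxyd5 by 0.26 ± 0.05 (0.0166 with, 0.488 without). Wnk2, another WNK kinase, averaged 25.4 ± 2.75 CPM in whisker-plus libraries, against 36.9 ± 7.15 in whisker-minus libraries (SD, n = 3 each; -0.51 ± 0.10 with the block, limma adjusted p = 0.0162, 0.281 without), and the 2 higher whisker-minus libraries, 2 and 3, are those with high astrocyte markers. Slc12a9, a relative of the cotransporters, averaged 12.1 ± 0.906 CPM, against 19.4 ± 4.27 (-0.62 ± 0.13, limma adjusted p = 0.0192 with the block, 0.247 without). Kcnj10, a potassium channel, also fell under the block and is named after its values had been seen. It was at 8.10, 10.5 and 9.22 CPM, against 8.34, 43.5 and 38.4 CPM, high in the same 2 libraries. The part of astrocyte RNA in these calls was not tested.

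Wnk2 in the silencing experiment showed again how silencing control 2 stood: 34.9, 51.8, 44.6 and 44.3 CPM in silencing libraries, against 24.8, 65.8, 29.4 and 26.6 CPM in silencing controls 1 to 4 (0.36 ± 0.27, limma adjusted p = 0.542). Klhl2, the close relative of Klhl3 that also binds CUL3, was at 382, 344, 334 and 378 CPM, against 198, 365, 146 and 163 CPM (0.82 ± 0.24, limma adjusted p = 0.165), with silencing control 2 again among the silencing libraries. The most abundant listed genes were Tsc22d1 among kinase partners (mean of 2310 CPM over the 22 libraries), Slc9a3r2 among sodium pump and exchanger genes (1560 CPM) and Sgk1, a kinase that inhibits NEDD4L (1030 CPM). Lrrc8c (314 CPM), Klhl2 (243 CPM) and Slc4a2 (63.2 CPM) led other groups. Of these 6, none passed by limma without the block in activation, silencing or whisker, and none with it.

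**Figure D5:**
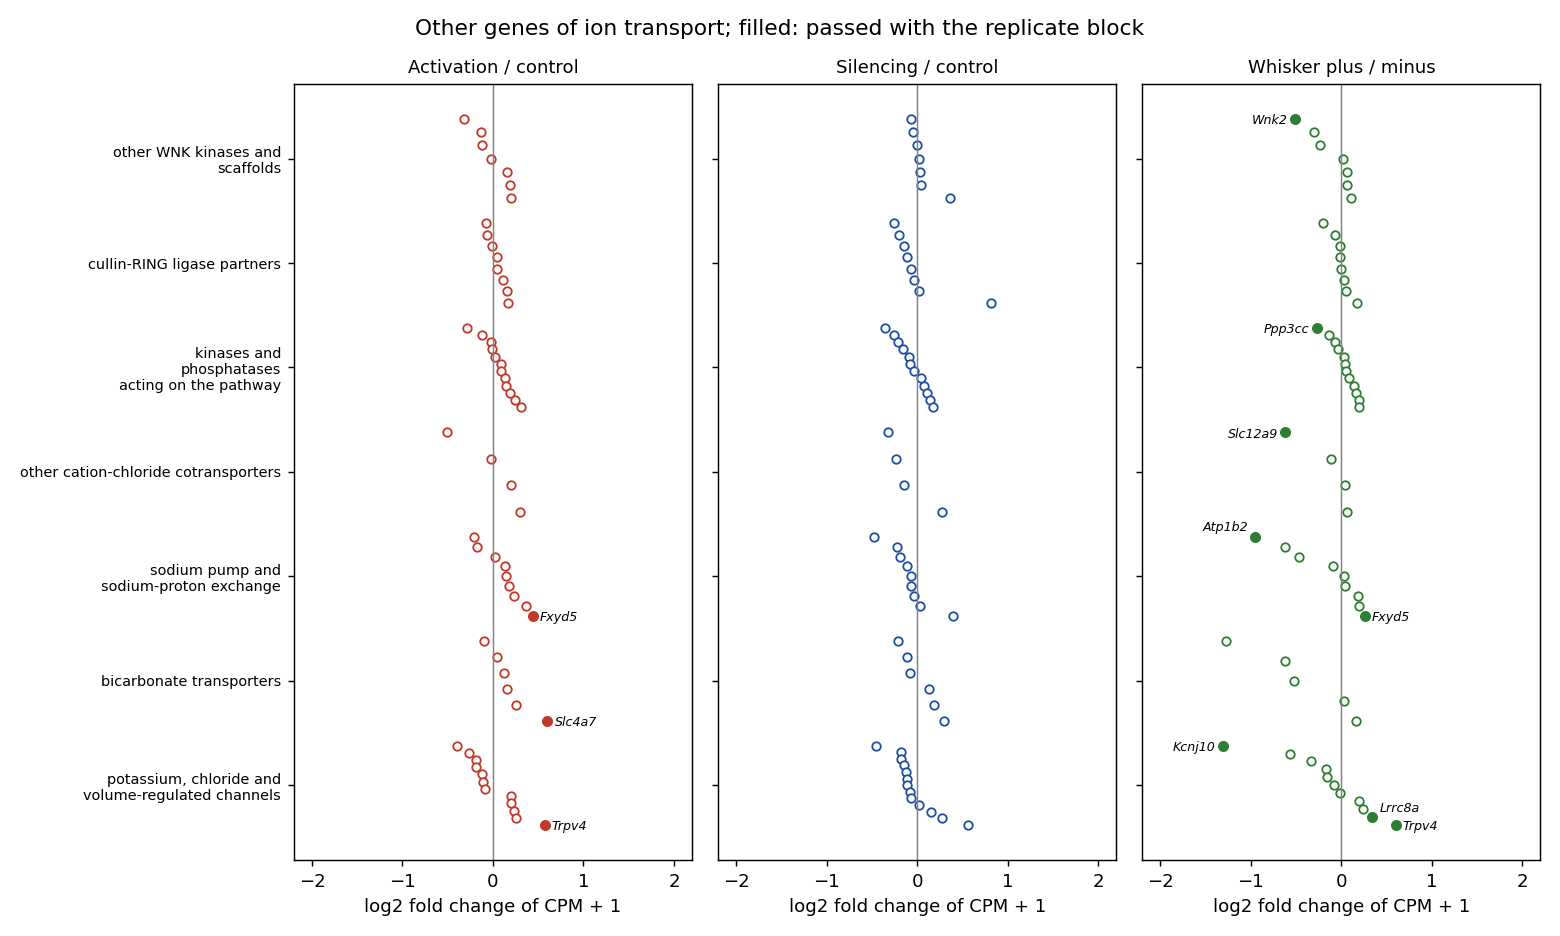
Log2 fold change of CPM + 1 (x axis) of the other listed genes, 1 point per gene shown, in 7 groups (rows) and 3 comparisons (panels). The groups cover kinases, phosphatases and ligase partners as well as ion transport. Filled and named points passed with the replicate block. Trpv4 and Fxyd5 are filled in both the activation and the whisker panel, and no gene is filled in the silencing panel.

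Steroid receptors and glucocorticoid-induced genes were followed as well, because Sgk1 and the mineralocorticoid receptor act on this pathway and Fkbp5 marked silencing control 2. Nr3c2, the mineralocorticoid receptor, fell with whiskers, at 24.3, 20.02 and 24.8 CPM, against 35.5, 30.9 and 33.6 CPM (-0.52 ± 0.09 with the block, limma adjusted p = 0.0126, and 0.219 without it). It was the 1 gene of the 9 tested in this list that passed for whiskers under the block, beside 8.59% of all tested genes. With silencing, 7 of the 9 tested genes were above 0, as were 33.7% of all tested genes, and 2 rose under the block, which called 1.04% of all: Klf15 (2.27 ± 0.32, limma adjusted p = 0.029) and Ddit4 (1.33 ± 0.13, 0.0209), with 0.0865 and 0.126 without it. Klf15 was at 26.2, 25.9, 23.5 and 16.6 CPM in silencing libraries, against 3.88, 13.7, 2.17 and 1.53 CPM in silencing controls. Tsc22d3, the most abundant of the list, averaged 877 ± 91.3 CPM, against 471 ± 189 (1.00 ± 0.29, limma adjusted p = 0.16). Silencing control 2 was the highest of its group for Klhl3, Klf15 and Fkbp5, and also for Wnk1, Wnk4, Cul3, Oxsr1, Slc12a2 and Slc12a7. For Stk39 and Nedd4l it was the lowest of its group.

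Genes whose pattern was most like that of Wnk4 or Klhl3 were taken by Pearson correlation of log2(CPM + 1) over the 22 libraries, after the mean of each experiment had been subtracted, among 10277 genes. The libraries share treatments and scaling, so r is a description. For Wnk4 the closest 5 were Samhd1 (r = 0.91), Rasal2, Epb4.1 and Slc25a33 (0.87 each) and Net1 (0.86). Net1 averaged 1161 ± 126 CPM in silencing libraries, against 416 ± 167 CPM in silencing controls, and 282 ± 74.3 CPM in activation libraries, against 322 ± 85.0 CPM in activation controls. For Klhl3 they were Stom and Abcc4 (0.89 each), Phactr1 (0.87), Slc25a30 and Pnpla7 (0.86 each). Abcc4, an efflux pump, averaged 565 ± 122 CPM in activation libraries, against 858 ± 153 CPM in activation controls, and 1635 ± 247 CPM in silencing libraries, against 1202 ± 456 CPM in silencing controls. Wnk4 and Klhl3 correlated with each other at 0.68, and Wnk1 correlated with Wnk4 at 0.11 and with Klhl3 at 0.07.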

How the data were processed

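Endothelial RNA was sequenced from 22 libraries, with reads of 100 bases per the labels' protocols. Groups and replicate numbers come from the sample titles. The deposited table holds the authors' CPM value of each gene in each library, and their own log2 fold changes, test statistics (a score) and p-values, per the file headers. Build mm9 and the tools HTSeq 0.6.1, TopHat2 2.0.11, SAMtools 0.1.19, Bowtie2 2.2.1 and DESeq2 appear in the submitters' processing notes, without settings. Whole reads were recovered from the CPM steps (100% of values within 0.01 read of a whole number).

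Log2(CPM + 1) was fitted with limma 3.58.1 (R 4.3.3) with a mean-variance trend. A gene was tested if at least as many libraries as the smaller group holds had 1 CPM or more of it, and Benjamini-Hochberg adjustment ran over all of them with a threshold of 0.05. Adding 1 CPM understates the change of low genes. No label says which animals a library holds, so p-values measure the spread between these samples. Scripts were tested on simulated data. The alternatives tried were a pseudocount of 0.1, no filter, scaling by TMM or RLE, 1 fit to all 22 libraries, leaving out each library, edgeR 4.0.16 (quasi-likelihood) and DESeq2 1.42.0 on the recovered reads, and the replicate number as a block.

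Same-numbered libraries of compared groups deviated together from their group means (r = 0.37, 0.45, 0.43 and 0.28 for activation pairs, 0.60, 0.16, 0.44 and 0.14 for silencing pairs, 0.46, 0.48 and 0.62 for whisker pairs), and each was closest to its own number. The numbers are therefore taken as pairs, from the data and not from the labels, and blocked values stand beside a result where they change a call.

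The 9 genes and the lists were chosen with earlier results of these data known. Named from the lists were genes passing with or without the block at a mean of at least 5 CPM, at most 6 per comparison by smallest p, the most abundant gene of a list, and the 5 genes closest to Wnk4 and to Klhl3 by correlation. Since mm9 is not the build of GENCODE M21, that annotation gave lengths, overlaps and a check of transcript starts, and the only coordinates printed are those of the RefSeq promoters. Some listed genes are not reported here. RefSeq promoters were found for 7 of the 9 genes.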

Additional observations from a re-analysis of the deposited data

Results flagged for a closer look

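In the silencing controls, library 2 held 15.9 CPM of Klhl3, far from the 7.53, 6.04 and 5.83 CPM of the other 3 libraries. In the silencing group, library 1 held 20.6 CPM of Stk39, far from 12.9, 14 and 14.1 CPM. That library also had the highest pericyte marker sum of its group, at 2400 CPM beside 1010 to 1820 CPM, and the part of this in the Stk39 value was not tested. Over the 36 sets of libraries looked at (9 genes in the 4 groups of 4), chance alone marks about 1 in 20 this way, and 2 were marked.

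Differences of effects between experiments were marked for 2 genes, at a limma adjusted p under 0.05. Of all tested genes, 2.31% passed for activation minus silencing and 0.221% for whisker minus silencing. The activation effect minus the silencing effect was -1.90 for Wnk4 and -2.10 for Klhl3 on the log2 scale, and the whisker effect minus the silencing effect was -1.43 for Wnk4. Wnk4 and Klhl3 were chosen for the first of these differences, and the silencing values enter the last as well, so they are descriptions.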

How the results depend on the processing

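Over 1080 alternative values of the 9 genes' log2 fold changes, 1073 moved by less than the spread or, where tested, kept their side of the threshold, and 6 moved further. In the whisker experiment, where the genes are tested, 1 value passed (Slc12a2, block with TMM scaling, 0.32). Counts of calls moved more. For activation, 18 genes passed, against 0 with RLE scaling, TMM scaling or no filter, 6 with a pseudocount of 0.1, 254 with all 22 libraries in the fit, 2 by edgeR, 371 by DESeq2, 234 with the replicate block and 138 with block and TMM (0 to 8 with 1 library left out). Of the 9 genes 1 passed, Klhl3, in the fit of all libraries, by DESeq2 and with either block, and of the other listed genes 2, 5, 3 and 3 passed there. For silencing, 23 passed (16 higher, 7 lower, against 29 and 6 with TMM), against 35 with TMM, 7 with no filter, 14 with a pseudocount of 0.1, 222 with all libraries, 24 by edgeR, 462 by DESeq2, 136 with the block and 134 with block and TMM (0 to 1503 with 1 left out, 1503 without silencing control 2); of the 9 genes 1 passed and 2 with all libraries or by DESeq2 (0 to 2 with 1 left out), and of the others 1 by DESeq2 (0 to 10). For the whisker experiment, 0 passed (1656 at an unadjusted p under 0.05, 0 by edgeR), against 6 with all libraries, 406 by DESeq2, 1097 with the block and 843 with block and TMM (0 to 301, 301 without whisker-minus 1); of the 9 genes 1 passed with block and TMM, and of the others 2 by DESeq2, 9 with the block and 7 with block and TMM (0 to 5). The difference of activation and silencing called 311 (196 higher, 115 lower, against 148 and 178 with TMM and 134 and 194 with RLE), against 111 with no filter, 537 with all libraries, 295 by edgeR, 760 by DESeq2, 855 with the block and 840 with block and TMM (86 to 918, the highest without silencing control 2); of the other genes 1 passed, 2 with RLE, 3 with TMM, 5 with all libraries, 2 by edgeR, 5 by DESeq2 and 7 with either block (1 to 5). The difference of whisker and activation called 0 (562 at an unadjusted p under 0.05), against 1 with all libraries, by edgeR and with the block and 15 by DESeq2 (0 to 175, 175 without whisker-minus 1; others 0 to 1). The difference of whisker and silencing called 30, against 8 with no filter, 3 with all libraries, 444 by DESeq2, 301 with the block and 258 with block and TMM (1 to 540); of the 9 genes 1 passed, 0 with no filter, all libraries or edgeR, and 2 by DESeq2 or either block (0 to 2), and of the others 1 by DESeq2 or either block (0 to 4). The replicate block ended no call among the 9 genes. The causes of these shifts were not tested. Wnk4 and Klhl3 rest on as few as 35 and 38 reads in a library, and the whisker groups hold 3 libraries each.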
